A study of Mus musculus with 12 samples.

Results

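Protocadherins are the largest group of the cadherin superfamily of cell adhesion molecules, and their genes were followed through the reprogramming of mouse fibroblasts into pluripotent cells. Members were all rows of the deposited count tables whose gene symbol starts with Pcdh, which gave 71 of 23420 genes. Of these, 59 are clustered genes, made up of 15 Pcdha (alpha), 22 Pcdhb (beta) and 22 Pcdhg (gamma) genes, and 12 are non-clustered genes that lie apart. RNA was sequenced from 4 groups of 3 libraries each, all labelled as a mixed C57BL/6 x 129 strain. MEF are mouse embryonic fibroblasts, Stage1 cells were taken at day 6 of reprogramming, Stage2 cells after 6 plus 4 days, and iPSC are established induced pluripotent stem cells. Per the series text, cells of every group except MEF had been sorted as Oct4-GFP+, by a fluorescent protein under control of the pluripotency gene Pou5f1 (Oct4). The reprogramming factors, the age of the embryos, and whether replicates came from separate cultures or animals are not stated in the labels, so every p-value measures the spread between these libraries only.

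Protocadherins carry extracellular cadherin repeats that bind the same protein on a facing cell, a transmembrane segment and a cytoplasmic tail. In the clustered family each gene begins with its own promoter and a large variable exon. The alpha and gamma genes splice this exon to a few constant exons shared by the whole cluster, whereas beta genes consist of an exon of their own. In neurons, promoter choice, which depends on CTCF, cohesin and DNA methylation, gives each cell its own combination of clustered proteins, a surface code by which branches of the same cell avoid each other. The C-type genes at the end of the alpha and gamma clusters follow a separate control and are less subject to this choice. Non-clustered protocadherins of the delta-1 and delta-2 classes regulate adhesion, cell sorting and migration, and several delta-2 tails recruit the actin-nucleating WAVE complex.

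The labels contradict each other, since the title and the stage among the characteristics name different groups in 12 of 12 libraries, and groups were taken here from the titles. Fibroblast collagen Col1a1 had 1.26 to 27.9 CPM (gene counts scaled to a common library size, by TMM) in the 9 later libraries, and 2144 to 3392 CPM in those titled MEF. Pou5f1 had 444 to 734 CPM in the 9 libraries of the later groups, compared with 0.877 to 3.94 CPM in MEF. These markers separated the libraries titled MEF from the rest, and were not used to order the others. Gene counts per library ranged from 8916223 to 19011944. Reads that fell outside genes averaged 9.21% of reads in MEF, 42.8% at Stage1, 49.9% at Stage2 and 38.8% in iPSC. This share moved with the groups, and its part in the low levels given here was not tested, apart from the comparison with silent genes at the end.

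The beta, gamma and non-clustered classes had most of their RNA in MEF and little of it in the other groups. Summed over the class, non-clustered genes had 467 ± 107 CPM in MEF (SD, n = 3 here and in each other group), 10.8 ± 3.23 at Stage1, 13 ± 2.13 at Stage2 and 9.99 ± 2.18 in iPSC. The gamma cluster had 274 ± 67 CPM in MEF, 29.1 ± 7.57 at Stage1, 58.0 ± 7.33 at Stage2 and 54.1 ± 2.46 in iPSC. In the beta cluster the sums were 63.9 ± 7.74, 7.42 ± 1.71, 7.26 ± 2.22 and 4.34 ± 1.59 CPM in the same order. Thus the gamma cluster stood at 10.6% of its MEF level at Stage1 and 21.2% at Stage2, while the beta cluster stood at 11.6% and 11.4% and the non-clustered genes at 2.32% and 2.79%. Alpha genes were near the detection limit throughout, with sums between 0.42 and 3.57 CPM in single libraries. Their sum was 2.42 to 2.86 CPM at Stage1 and 0.869 to 1.33 CPM in MEF, without overlap. With no count filter, and with DESeq2, Pcdha6, Pcdha7, Pcdha8 and Pcdhac1 were called higher at Stage1, beside 44.2% of all genes in the main fit. Silent olfactory receptor genes, set out at the end, had 0.0545 CPM per kilobase of unshared exon at Stage1 and 0.00499 in MEF. Alpha genes with a known position had 0.0689 and 0.0238 in the same order. The part of stray reads in the alpha difference was not tested. In bulk RNA, fewer expressing cells and less RNA per cell cannot be told apart.

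**Figure D1:**
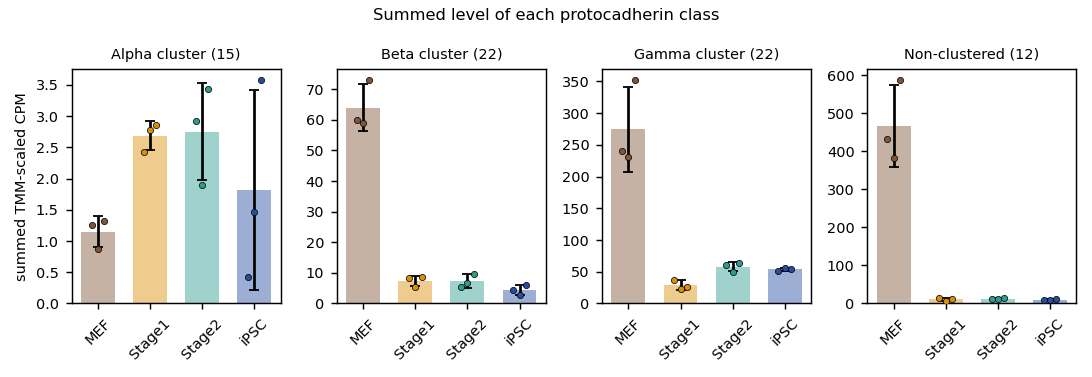
Summed TMM-scaled CPM of each protocadherin class (number of genes in parentheses) in MEF, Stage1, Stage2 and iPSC, with bars for means, whiskers for SD and points for the 3 libraries of each group. The beta, gamma and non-clustered sums are highest in the 3 MEF libraries, the gamma sum is higher in all 3 Stage2 than in all 3 Stage1 libraries, and the alpha axis ends below 4 CPM.

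Genes were tested in 1 edgeR quasi-likelihood fit over all 12 libraries and 14770 genes, and a gene was called where its p, adjusted by Benjamini-Hochberg, was under 0.05. Enough counts for a test were found in 40 of the 71 protocadherins, namely 22 of 22 gamma, 10 of 22 beta, 8 of 12 non-clustered and 0 of 15 alpha genes. Of these 40, 13 passed the count filter through the MEF libraries alone (10 beta genes, Pcdhga6, Pcdh9 and Pcdh11x), so they had to be lower elsewhere and their falls are a description. In Stage1 against MEF, 38 of 40 were lower, against 36.1% of all genes tested, and 1 was higher, against 44.2% (80.4% in either direction). Leaving aside the 13, 25 of 27 were lower, with a median log2 fold change of -2.78 where all genes had 0.27. Scaling by library totals in place of TMM moved the median of all genes by 0.181 in Stage1 against MEF, 0.204 in Stage2 against Stage1, 0.283 in iPSC against MEF and 0.104 in iPSC against Stage1. It reversed the direction of no called protocadherin, but with it 27 members in place of 32 were lower in iPSC than in MEF, and Pcdhga11, Pcdh19 and Pcdhb22 each lost a call given below.

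**Figure D2:**
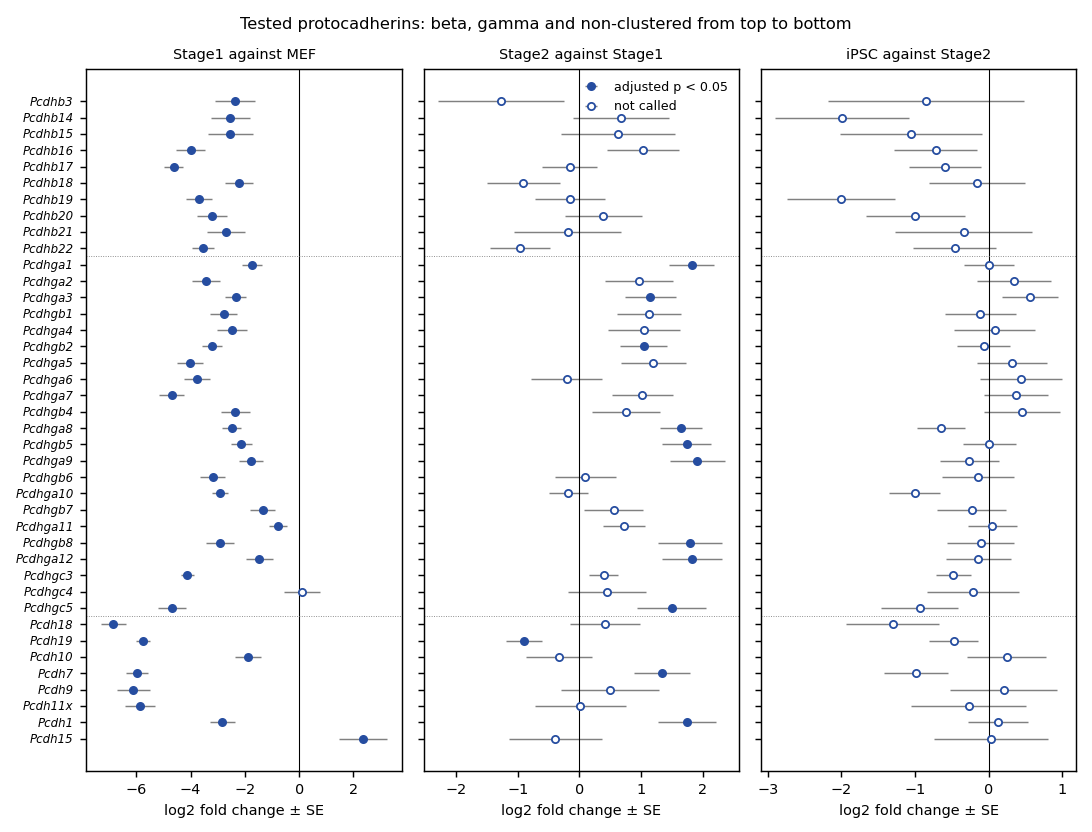
Log2 fold changes with standard errors (SE) of the 40 tested protocadherins in the 3 steps MEF to Stage1, Stage1 to Stage2 and Stage2 to iPSC, in chromosomal order within the beta and gamma clusters. Filled points passed an adjusted p of 0.05: 39 in the left panel, all but Pcdh15 negative, 12 in the middle panel and 0 in the right panel.

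The delta-2 class comprises Pcdh18, Pcdh19, Pcdh10, Pcdh8 and Pcdh17. They are shown with the bases before their annotated starts because 3 of them fell at Stage1, while Pcdh8 had counts in all groups but MEF and Pcdh17 stayed low in all groups. The sequences are from RefSeq (GRCm38.p6, the mm10 build), read 5′ to 3′ on the gene's strand, and cut where the outermost transcript starts. Capitals mark GGGCGG (a GC box), CCAAT or TATAAA on either strand, none overlapping another.
Pcdh18 (chr3:49757384-49757566, minus strand): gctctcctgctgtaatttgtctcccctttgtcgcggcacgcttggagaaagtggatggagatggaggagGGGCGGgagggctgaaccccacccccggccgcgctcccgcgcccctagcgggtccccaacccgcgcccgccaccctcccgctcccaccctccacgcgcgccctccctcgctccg
Pcdh19 (chrX:133689045-133689243, minus strand): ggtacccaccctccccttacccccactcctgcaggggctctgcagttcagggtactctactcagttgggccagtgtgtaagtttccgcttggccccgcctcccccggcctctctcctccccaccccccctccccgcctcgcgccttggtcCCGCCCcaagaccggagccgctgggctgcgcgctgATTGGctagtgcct
Pcdh10 (chr3:45378148-45378397, plus strand): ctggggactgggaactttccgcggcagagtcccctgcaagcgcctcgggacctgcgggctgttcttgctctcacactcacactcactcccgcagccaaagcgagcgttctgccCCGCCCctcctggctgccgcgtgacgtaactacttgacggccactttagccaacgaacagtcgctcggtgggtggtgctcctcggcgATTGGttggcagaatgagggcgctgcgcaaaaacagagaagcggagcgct
Pcdh8 (chr14:79771313-79771562, minus strand): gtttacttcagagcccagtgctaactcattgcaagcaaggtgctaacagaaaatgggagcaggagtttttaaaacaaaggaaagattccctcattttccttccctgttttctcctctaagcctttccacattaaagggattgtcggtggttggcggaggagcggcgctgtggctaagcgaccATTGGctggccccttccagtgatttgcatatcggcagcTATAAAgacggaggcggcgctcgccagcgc
Pcdh17 (chr14:84443313-84443562, plus strand): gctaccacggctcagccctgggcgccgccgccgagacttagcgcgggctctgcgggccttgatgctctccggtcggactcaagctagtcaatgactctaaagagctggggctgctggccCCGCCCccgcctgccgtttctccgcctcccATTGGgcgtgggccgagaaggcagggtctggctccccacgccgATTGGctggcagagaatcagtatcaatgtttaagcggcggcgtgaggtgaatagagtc

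The Pcdh18 window holds 19 CG pairs in 183 bases, more than 91.6% of 32851 RefSeq promoters cut to the same length. Pcdh10 holds 22 and Pcdh17 holds 21 in 250 bases, more than 85.2% and 83.7% of promoters, whereas Pcdh19 holds 11 in 199 bases and Pcdh8 11 in 250 bases (73.5% and 64.4%). GGGCGG was present in Pcdh18, Pcdh19, Pcdh10 and Pcdh17, and in 32.7% of all promoters over 250 bases, 24.4% over 199 and 21.5% over 183. CCAAT was found in Pcdh19, Pcdh10, Pcdh8 and Pcdh17, and in 33.8% of all promoters over 250 bases and 28.2% over 199. TATAAA was found in Pcdh8 and in 12.4% of all promoters over 250 bases. Cutting all promoters to 183 or 199 bases kept their upstream part and left off the bases next to the start. The Pcdh18 and Pcdh19 windows themselves end at the outermost start. Their ranks, and the shares over 183 and 199 bases, therefore compare unlike positions. These matches describe letters and no binding was measured. Of the 71 members 9 had a promoter entry. Only delta-2 windows are shown, and entries on chromosome 18 were set aside. Pcdh20, which is not of that class, has a window of 250 bases with 3 CG pairs, CCAAT and neither GGGCGG nor TATAAA.

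Pcdh19 had the largest counts of any member. It lies on the X chromosome (mm10 X:133582860-133688987), and mutations in its human counterpart cause an epilepsy seen mostly in girls. Its level was 230.4, 215 and 246 CPM in MEF, 4.84, 2.24 and 5.64 CPM at Stage1, 2.54, 1.62 and 2.72 CPM at Stage2 and 1.18, 2.15 and 1.53 CPM in iPSC. All MEF libraries stood far above all others. Stage1 lay below MEF by a log2 fold change of -5.75 (SE 0.26, adjusted p = 1.51e-12, edgeR). A further fall passed the test at Stage2 against Stage1 (-0.90, SE 0.29, adjusted p = 0.0201), although 1 Stage1 library lay among the Stage2 values. That call was lost without Stage1 replicate 1 (adjusted p = 0.069), Stage1 replicate 3 (0.111) or Stage2 replicate 2 (0.1), and with library totals (0.0724) or a fit of only these groups (0.0573). iPSC were lower than Stage1 (-1.37, SE 0.31, adjusted p = 0.00183), and no member was called between iPSC and Stage2 in the fit over all libraries.

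Pcdh18, whose tail binds the adaptor Dab1 in mouse, fell furthest at Stage1 among the tested members (mm10 3:49743296-49757325). It had 102, 89.7 and 182 CPM in MEF, 2.01, 0.716 and 0.337 CPM at Stage1, 1.66, 1.06 and 1.62 CPM at Stage2 and 0.84, 0.764 and 0.0851 CPM in iPSC. All 9 later libraries were at or below 2.01 CPM, and the Stage1 and Stage2 ranges overlapped. The change of Stage1 against MEF was -6.85 on the log2 scale (SE 0.46, adjusted p = 8.59e-10), and that of Stage2 against Stage1 did not pass (0.42, SE 0.56, adjusted p = 0.588).

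Pcdh10, which recruits the WAVE subunit Nckap1 to cell contacts, fell as well (mm10 3:45378398-45435623). Libraries had 3.01, 3.54 and 3.32 CPM in MEF, 0.83, 0.537 and 1.26 CPM at Stage1, 0.977, 0.776 and 0.388 CPM at Stage2 and 0.672, 0.556 and 1.28 CPM in iPSC. MEF lay above all other libraries, which overlapped each other. Stage1 against MEF gave -1.90 (SE 0.49, adjusted p = 0.0017).

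Pcdh8 and Pcdh17 had too few counts for the test. Pcdh8, also called arcadlin, takes N-cadherin off the surface of synapses and marks forming somites. It had no count in MEF, which allows up to 0.0759 CPM over the group. Stage1 libraries held 2 counts of it in all, Stage2 libraries 32 and iPSC libraries 9. At Stage2 that was 0.391, 0.564 and 1.29 CPM, above the 3 Stage1 libraries, of which the highest had 0.0842 CPM. With no count filter, Stage2 against Stage1 had an adjusted p of 0.0227 for Pcdh8, and iPSC against MEF one of 0.0165. Per kilobase of unshared exon, Pcdh8 had 0.187 CPM at Stage2 and 0.063 in iPSC. The Stage2 value lay above the 95th percentile of silent olfactory receptor genes, given at the end (0.12), and the iPSC value under it (0.0847). The part of stray reads in the iPSC difference was not tested. Pcdh17, which shapes presynaptic clusters and axon bundles, had 11 to 22 counts per group and overlapped between all groups.

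Delta-1 genes were lower at Stage1 in all 4 cases. Pcdh7, Pcdh9 and Pcdh11x stood at 1.49%, 1.43% and 1.66% of their MEF means, and Pcdh1, which was lower in MEF, at 14.2%. The Stage1 mean of Pcdh1 (0.669 CPM) was still below that of Pcdh7 (0.816 CPM). Pcdh7, which binds protein phosphatase 1 and Set (mm10 5:57717967-58133230), had 56.4, 36.8 and 71.6 CPM in MEF. It had 1.59, 0.269 and 0.589 CPM at Stage1, 2.35, 1.83 and 2.39 CPM at Stage2 and 0.672, 1.18 and 1.45 CPM in iPSC. Stage1 lay far below MEF (-5.98, SE 0.41, adjusted p = 2.94e-10), and Stage2 above Stage1 without overlap (1.34, SE 0.45, adjusted p = 0.0259). Even so, Stage2 reached 3.99% of the MEF mean. The Stage2 call was lost without Stage1 replicate 2 (adjusted p = 0.116), Stage1 replicate 3 (0.0995), Stage2 replicate 1 (0.0614) or Stage2 replicate 3 (0.0801). Fibroblast markers moved the same way: 12 of 15 were higher at Stage2 than at Stage1, beside 20.6% of all genes. Their sum was 1214 to 1514 CPM against 360 to 652 CPM. Fn1 made up most of both sums (1185 ± 132 CPM at Stage2 and 440 ± 163 CPM at Stage1). The part of these markers in the Pcdh7 difference was not tested.

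Pcdh9, a gene expressed mainly in the nervous system, had between 0.252 and 1.11 CPM in the 9 later libraries and 21.3, 11 and 52.2 CPM in MEF. Pcdh11x, an X-linked gene with a Y-linked copy in humans, had between 0 and 0.766 CPM in the later libraries and 15.8, 19.4 and 22.6 CPM in MEF. Neither overlapped between MEF and any other group, and both passed the count filter through MEF alone. Their Stage1 changes were -6.11 (SE 0.61) and -5.87 (SE 0.54). MEF replicate 1 differed from replicates 2 and 3 in sex-linked RNA, with 227 CPM of Xist against 0.267 and 0 CPM. For X-linked Pcdh19 and Pcdh11x, its value lay inside the range of the others or below it.

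Pcdh1, found in airway epithelium and linked to asthma in humans, was lowest at Stage1. It lies on chromosome 18 (mm10 38185914-38212053), 344041 bases past the end of the gamma cluster. Its level was 2.13, 6.28 and 5.73 CPM in MEF, 0.691, 0.895 and 0.421 CPM at Stage1, 2.25, 2.26 and 2.26 CPM at Stage2 and 2.94, 2.5 and 1.96 CPM in iPSC. Stage1 lay below all other libraries, whereas Stage2 and iPSC overlapped the lowest MEF library. Stage1 against MEF gave -2.83 (SE 0.46, adjusted p = 1.95e-05) and Stage2 against Stage1 gave 1.74 (SE 0.47, adjusted p = 0.00668). In iPSC it stood at 52.3% of the MEF mean.

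Pcdh15, Pcdh12 and Pcdh20 were low in all groups. Pcdh15, a component of the tip links of inner ear hair cells, was the 1 tested protocadherin that was higher at Stage1 than in MEF. It had 1.11, 1.34 and 1.35 CPM at Stage1 versus 0, 0 and 0.603 CPM in MEF (2.36, SE 0.89, adjusted p = 0.0222). Stage2 libraries had 0.782, 0.846 and 1.23 CPM and iPSC libraries 0.756, 0.208 and 2.04 CPM, which overlapped Stage1. Without MEF replicate 1 or 2 the Stage1 call was lost (adjusted p = 0.0634 and 0.0806). Per kilobase of unshared exon, Pcdh15 had 0.0788 CPM at Stage1, 0.0593 at Stage2 and 0.0624 in iPSC. These values lay under the 95th percentile of silent olfactory receptor genes, given at the end (0.092, 0.12 and 0.0847). Summed, those genes had 0.00499 CPM per kilobase in MEF and 0.0545 at Stage1, and the part of such stray reads in the Pcdh15 call was not tested. Pcdh12, an endothelial protocadherin, was not tested, with 2 counts in MEF, 13 at Stage1, 23 at Stage2 and 12 in iPSC. Endothelial Cdh5 lay between 0 and 2.41 CPM in the 12 libraries, while 10 endothelial markers summed to 54.7 to 68.8 CPM at Stage1 and 17.2 to 23.2 CPM in MEF. Of 6 tested, 4 were higher and 1 lower at Stage1, beside 44.2% and 36.1% of all genes. Pecam1 made up most of the Stage1 sum (41.0 ± 9.2 CPM, and 0.19 ± 0.18 CPM in MEF). Emcn had 0.137 ± 0.1 CPM at Stage1 and 10.1 ± 5.95 CPM in MEF. The part of endothelial markers in the Pcdh12 counts was not tested. Pcdh20 had 14 to 33 counts per group and did not separate the groups.

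**Figure D3:**
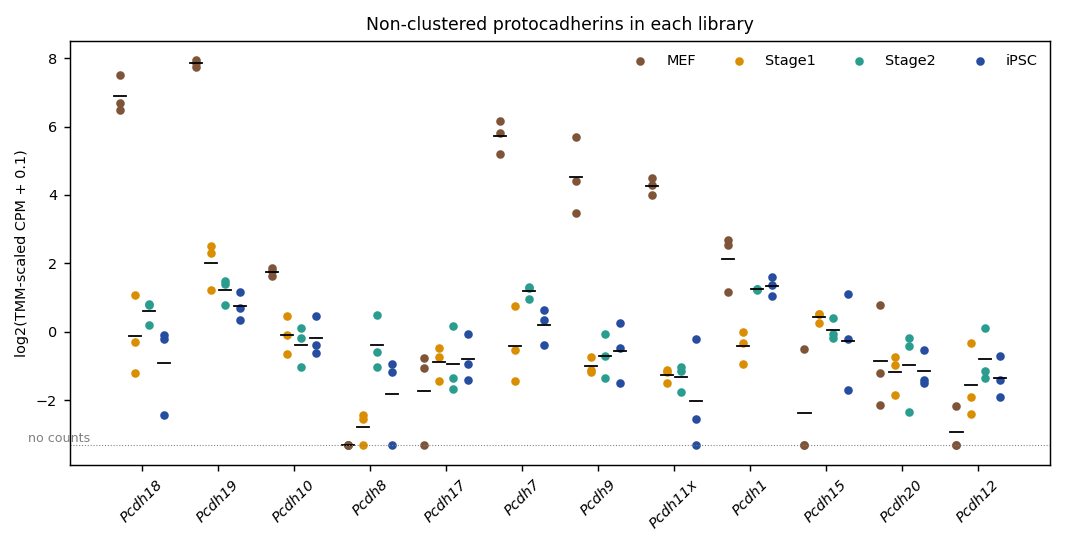
Log2 of TMM-scaled CPM plus 0.1 of the 12 non-clustered protocadherins in MEF, Stage1, Stage2 and iPSC, with points for the 3 libraries of each group, black dashes for their means and a dotted line for 0 counts. MEF stands apart for Pcdh18, Pcdh19, Pcdh7, Pcdh9 and Pcdh11x, and Pcdh1 is lowest at Stage1.

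The beta cluster spans chromosome 18 from 37264938 to 37524479 (mm10), and beta proteins, which lack the constant tail, join the same mixed adhesive complexes as alpha and gamma proteins. Its levels were low outside MEF. The 10 tested beta genes all owed their place in the test to MEF, and stood between 3.92% and 21% of their MEF means at Stage1 (median 12.5%), between 3.48% and 25.6% at Stage2 and between 1.62% and 12.1% in iPSC. Pcdhb17 had between 0.255 and 0.691 CPM in the later libraries and 15.3, 11.7 and 17 CPM in MEF. Its change in Stage1 against MEF was -4.63 (SE 0.37). Pcdhb22 had 7.52, 13.6 and 12.1 CPM in MEF, 0.761, 0.806 and 1.26 CPM at Stage1, 0.391, 0.776 and 0.259 CPM at Stage2 and 0.336, 0.278 and 0.425 CPM in iPSC. MEF stood above the other groups for both genes, and Stage1 above iPSC for Pcdhb22.

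Pcdhb16 had 0.417 to 2.07 CPM in the later libraries and 10.8, 5.22 and 10.3 CPM in MEF. Pcdhb19 had 5.39, 6.75 and 7.84 CPM in MEF, 0.484, 0.358 and 0.673 CPM at Stage1, 0.489, 0.423 and 0.453 CPM at Stage2, and 0, 0.0694 and 0.255 CPM in iPSC. Pcdhb20 had 0.0694 to 0.776 CPM in the later libraries and 2.88, 3.08 and 4.64 CPM in MEF. In each of the 3, MEF lay above every other library. No beta gene was called between Stage2 and Stage1, where the 10 had a median log2 fold change of -0.16. The remaining 12 beta genes were not tested. Their highest value was 0.776 CPM in the later libraries, and 3.74 CPM in MEF (Pcdhb7). With no count filter, and with DESeq2, Pcdhb2, Pcdhb5, Pcdhb7, Pcdhb11 and Pcdhb13 were called lower at Stage1 than in MEF, and Pcdhb1 higher. Of all genes in the main fit, 36.1% were lower and 44.2% higher.

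All 22 gamma genes were tested. They span chromosome 18 from 37661793 to 37841873 (mm10) and share constant exons of 2116 to 2119 bases, beside 2499 to 3247 bases of exon of their own. Reads in the constant exons cannot be assigned to 1 gene, and reads from near-identical variable exons could be split or lost, so single-gene values within the cluster are uncertain to that extent. At Stage1, 21 gamma genes were lower than in MEF and 1 did not pass, with a median log2 fold change of -2.64. Per kilobase of unshared exon, Pcdhgc3 was the highest member in MEF at 48.8 CPM, above Pcdh18 at 24.1 and Pcdh19 at 22.4.

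Pcdhgc3, a C-type gene that promotes dendrite branching in mouse cortex, carried much of the gamma RNA of MEF. It had 97.5, 111 and 168 CPM in MEF, 9.47, 5.37 and 6.48 CPM at Stage1, 9.09, 8.04 and 11.1 CPM at Stage2 and 6.47, 6.67 and 7.14 CPM in iPSC. MEF lay above all others, Stage1 overlapped both later groups, and all Stage2 libraries exceeded all iPSC libraries. Stage1 against MEF gave -4.13 (SE 0.24, adjusted p = 4.22e-11), and Stage2 against Stage1 did not pass (0.39, SE 0.24, adjusted p = 0.2). iPSC against Stage2 did not pass either (-0.48, SE 0.24, adjusted p = 0.179), but was called in an edgeR fit of only these groups (-0.53, adjusted p = 0.0444). As a share of all gamma counts, Pcdhgc3 held 45.4% ± 4.32 in MEF, 24.3% ± 1.03 at Stage1, 16.2% ± 1.03 at Stage2 and 12.5% ± 0.57 in iPSC. The libraries of no 2 groups overlapped in this share, which is given without a test.

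The other C-type genes differed from each other. Pcdhgc5 had 0.691, 0.537 and 0.505 CPM at Stage1 versus 13, 14.2 and 18.6 CPM in MEF (-4.69, SE 0.52, adjusted p = 2.2e-07). Pcdhgc4, the gamma gene needed for the survival of many neurons in mouse, had 0.415, 0.448 and 1.09 CPM at Stage1 versus 1.13, 0.267 and 0.543 CPM in MEF. These overlapped, and it was the gamma gene that did not pass (0.11, SE 0.66, adjusted p = 0.879).

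Among the A and B types, which are the genes subject to promoter choice in neurons, the largest falls at Stage1 were those of Pcdhga7 and Pcdhga5. Pcdhga7 had 0.899, 0.358 and 0.421 CPM at Stage1 versus 13.2, 14.6 and 17.9 CPM in MEF (-4.70, SE 0.45, adjusted p = 2.65e-08). Pcdhga5 had 0.761, 0.179 and 0.673 CPM at Stage1 versus 9.77, 8.09 and 9.53 CPM in MEF (-4.02, SE 0.49, adjusted p = 7.06e-07). Pcdhga6 had 0.346, 0.358 and 0.589 CPM at Stage1 versus 5.14, 5.01 and 7.6 CPM in MEF. In all 3 the groups were far apart. The smallest fall that passed was that of Pcdhga11, with 3.18, 2.06 and 2.19 CPM at Stage1 versus 3.26, 4.08 and 5.31 CPM in MEF (-0.77, SE 0.34, adjusted p = 0.0457). It was lost in 9 of the 12 fits that left out a library (adjusted p = 0.051 to 0.155), with library totals (0.124), with no filter (0.0597) and in a fit of only these groups (0.0643). Without MEF replicate 3, Pcdhga12 and Pcdhgb7 were lost too (0.129 and 0.0996), and Pcdhgb7 also without Stage1 replicate 2 or 3 (0.0622 and 0.0611).

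**Figure D4:**
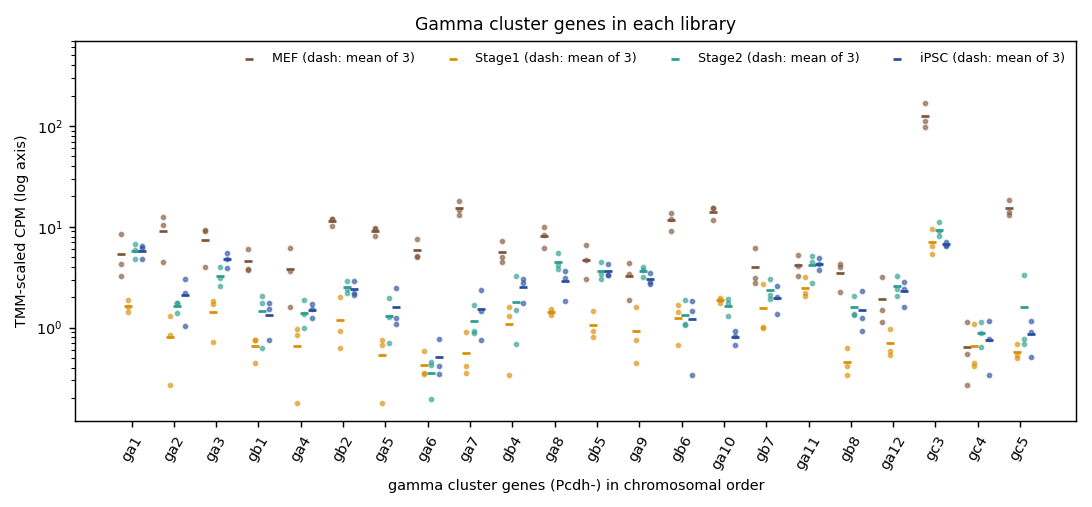
TMM-scaled CPM on a log axis of the 22 gamma genes in chromosomal order (the prefix Pcdh is left off), with points for the 3 libraries of MEF, Stage1, Stage2 and iPSC and dashes for means. Stage1 is the lowest group for ga1, ga9 and ga12, where Stage2 and iPSC overlap MEF, while gc3 keeps to about 5.37 to 11.1 CPM in all groups after MEF.

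Stage2 against Stage1 asked what changed over the 4 further days. Of the 40 tested members 11 were higher, against 20.6% of all genes, and 1 was lower, against 19.8% (40.4% in either direction). Of the 11, 9 were gamma genes (Pcdhga1, Pcdhga3, Pcdhgb2, Pcdhga8, Pcdhgb5, Pcdhga9, Pcdhgb8, Pcdhga12 and Pcdhgc5), 8 of them of the A and B types, and the others were Pcdh1 and Pcdh7. The 22 gamma genes had a median log2 fold change of 1.05, where all genes had 0.02. In total 7 members were higher without Stage1 replicate 2, and 7 without Stage1 replicate 3.

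Pcdhga9 rose most, with 3.71, 3.17 and 4.01 CPM at Stage2 against 1.59, 0.448 and 0.758 CPM at Stage1 (1.91, SE 0.44, adjusted p = 0.00245). Pcdhga12 had 3.22, 2.4 and 2.07 CPM at Stage2 against 0.968, 0.537 and 0.589 CPM at Stage1 (1.83, SE 0.49, adjusted p = 0.00663). Pcdhga1, the gene at the start of the cluster, had 6.74, 4.8 and 5.89 CPM at Stage2 against 1.59, 1.88 and 1.43 CPM at Stage1 (1.82, SE 0.37, adjusted p = 0.000857). In each of the 3, all Stage2 libraries exceeded all Stage1 libraries, and the Stage2 mean stood at 112%, 132% and 108% of the MEF mean, in the order named.

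Pcdhgb8 had 1.37, 1.34 and 2.07 CPM at Stage2 against 0.415, 0.627 and 0.337 CPM at Stage1 (1.79, SE 0.52, adjusted p = 0.011), and was lost without Stage1 replicate 3 (0.0519) or Stage2 replicate 3 (0.0553). Pcdhgb5 had 4.5, 3.39 and 3.04 CPM at Stage2 against 1.45, 0.806 and 0.926 CPM at Stage1 (1.74, SE 0.39, adjusted p = 0.00203). Pcdhga8 had 4.2, 3.81 and 5.5 CPM at Stage2 against 1.52, 1.34 and 1.43 CPM at Stage1 (1.65, SE 0.35, adjusted p = 0.00112). These groups did not overlap either.

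The calls of the remaining 3 depended on single libraries. Pcdhgc5 had 0.684, 0.776 and 3.36 CPM at Stage2 against 0.691, 0.537 and 0.505 CPM at Stage1 (1.5, SE 0.56, adjusted p = 0.0407). Stage2 replicate 3 stood above the others, and without it the change was 0.31 (adjusted p = 0.67). It was also lost without Stage1 replicate 1 (0.0697), 2 (0.107) or 3 (0.113) and without iPSC replicate 2 (0.0538). Pcdhga3 rose by 1.15 (SE 0.41, adjusted p = 0.0339) and was lost without Stage1 replicate 2 (0.156), Stage2 replicate 1 (0.0657) or Stage2 replicate 2 (0.128). Pcdhgb2 rose by 1.04 (SE 0.38, adjusted p = 0.0365) and was lost without any 1 Stage2 replicate (0.0691, 0.0545 and 0.124) or without Stage1 replicate 2 or 3 (0.167 and 0.136).

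Of 15 fibroblast markers, 12 were higher and 0 lower at Stage2 than at Stage1. In this comparison 20.6% of all genes were higher and 19.8% lower, which stands beside each marker count given here. The 15 fibroblast markers had a median of 1.19% of their MEF level at Stage2 (0.257% to 16.7%), and the 22 gamma genes one of 34.8% (6.04% to 137%). The 9 called gamma genes, which were selected by their rise at Stage2, stood between 10.5% and 132%. At Stage1 the marker median was 0.257% and that of the 22 gamma genes 15.9%. Macrophage markers, as markers of another cell type, summed to 24.8 to 29.8 CPM at Stage2 against 7.91 to 15.4 CPM at Stage1. The 1 of 6 tested that was higher, Cd68, made up most of this sum (25.0 ± 2.28 CPM at Stage2 and 7.54 ± 3.3 CPM at Stage1), and the 1 that was lower was Lyz2 (0.439 ± 0.224 and 1.3 ± 0.273 CPM). Neural markers summed to 275 to 320 CPM at Stage2 versus 226 to 251 CPM at Stage1, with 5 of 11 tested higher and 2 lower. Among these Stmn2 was higher (195 ± 18.9 CPM at Stage2 and 93.7 ± 6.74 CPM at Stage1), and Nefl (32.8 ± 1.25 and 109 ± 9.26 CPM) and Map2 were lower. The part of these markers in the gamma difference was not tested.

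iPSC against Stage2 gave no call among the 40 tested members in edgeR's fit, against 9.21% of all genes called higher and 8.87% called lower (18.1% in either direction). At an unadjusted p below 0.05, 0 were higher and 4 lower, and DESeq2 called 0 higher and 2 lower. Pcdhga10 came closest, with 0.924, 0.833 and 0.68 CPM in iPSC against 1.76, 1.9 and 1.29 CPM at Stage2 (-1.01, SE 0.35, adjusted p = 0.0519). Its groups did not overlap, and it was called with RLE scaling (0.043) and with library totals (0.0394). Leaving out libraries gave 2 lower calls without MEF replicate 1, MEF replicate 2 or iPSC replicate 3, and 1 without MEF replicate 3, any 1 Stage1 replicate, or Stage2 replicate 1 or 2; these were Pcdhga10, Pcdhb19 and Pcdhb11, of which the last had too few counts for the test on all libraries. The 22 gamma genes had a median log2 fold change of -0.09 and SE of up to 0.62.

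iPSC against Stage1 shares its libraries with the comparisons above. Of 40 members 10 were higher, against 21.3% of all genes, and 4 were lower, against 18.1% (39.4% in either direction). The higher ones were 9 gamma genes, with changes of 1.00 to 1.83, and Pcdh1 (1.87, SE 0.47, adjusted p = 0.00404). Among them, Pcdhga3 had 4.79, 5.56 and 3.91 CPM in iPSC against 1.73, 0.716 and 1.85 CPM at Stage1 (1.71, SE 0.41, adjusted p = 0.00284). Pcdhga1 had 6.22, 6.46 and 4.76 CPM in iPSC against the Stage1 values above (1.83, SE 0.37, adjusted p = 0.000792). In both, every iPSC library exceeded every Stage1 library.

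The 4 lower ones were Pcdh19, Pcdhb19, Pcdhb22 and Pcdhga10. Pcdhga10 had 0.924, 0.833 and 0.68 CPM in iPSC against 1.87, 1.97 and 1.77 CPM at Stage1 (-1.19, SE 0.34, adjusted p = 0.0106), so the cluster held genes that moved in both directions. Pcdhb19 gave -2.16 (SE 0.73, adjusted p = 0.025) and was lost without Stage1 replicate 3 (0.0902), iPSC replicate 1 (0.0937) or iPSC replicate 2 (0.0901). Like Pcdhb22, it was tested through MEF counts alone, and it had 19 counts at Stage1 and 4 in iPSC. Its 0.0708 CPM per kilobase of unshared exon at Stage1 lay under the 95th percentile of silent olfactory receptor genes (0.092). Pcdhb22 gave -1.43 (SE 0.52, adjusted p = 0.0375) and was lost without any 1 iPSC replicate (0.0921, 0.119 and 0.0614), without Stage1 replicate 2 or 3 (0.0575 and 0.149), with library totals (0.0534) or with no filter (0.0641). With 1 library left out, 6 members were higher without Stage1 replicate 2 or iPSC replicate 3, and Pcdhga5, Pcdhga7, Pcdhga8, Pcdhga12 and Pcdhgb8 each lost their call in at least 1 such fit. Only 2 were lower without Stage1 replicate 3, iPSC replicate 1 or iPSC replicate 2.

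In iPSC against MEF, 32 of 40 members were lower, against 35.8% of all genes, and 0 were higher, against 44.9% (80.8% in either direction). At an unadjusted p below 0.05 there was 1 higher member, Pcdh15 (2.00, SE 0.91, adjusted p = 0.0514), and DESeq2 called 2 higher. Pcdh15 was called without MEF replicate 3 (adjusted p = 0.00129) or iPSC replicate 2 (0.018). Of the 27 members not tested through MEF alone, 19 were lower. The lower ones were 10 beta, 15 gamma and 7 non-clustered genes, the last with changes from -7.74 (Pcdh18, SE 0.50) to -0.96 (Pcdh1, SE 0.40, adjusted p = 0.0349). Pcdh1 was lost without MEF replicate 2 (0.116), MEF replicate 3 (0.0899), iPSC replicate 2 (0.081) or iPSC replicate 3 (0.122), with library totals (0.129) and in a fit of only these groups (0.0518). Pcdhga4, Pcdhgb4, Pcdhgb7 and Pcdhgb8 were lost with library totals (0.0716, 0.116, 0.138 and 0.0614), without MEF replicate 3 (0.211, 0.117, 0.284 and 0.0577) and in further fits that left out 1 library.

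The 7 gamma genes that did not pass were Pcdhga1, Pcdhga3, Pcdhgb5, Pcdhga9, Pcdhga11, Pcdhga12 and Pcdhgc4. Of these, Pcdhga3 was called lower without MEF replicate 2 (-0.96, adjusted p = 0.0141), against -0.63 with all libraries. Pcdhga1 had 6.22, 6.46 and 4.76 CPM in iPSC against 4.26, 3.28 and 8.56 CPM in MEF (0.10, SE 0.34, adjusted p = 0.786). Pcdhga9 had 2.86, 3.47 and 2.72 CPM in iPSC against 1.88, 4.41 and 3.44 CPM in MEF (-0.13, SE 0.40, adjusted p = 0.773). Pcdhga11 had 3.7, 4.86 and 4.25 CPM in iPSC against 3.26, 4.08 and 5.31 CPM in MEF (0.01, SE 0.33, adjusted p = 0.989). Groups overlapped in all 3, which does not show that the levels were equal. Pcdhga10, in contrast, had 0.924, 0.833 and 0.68 CPM in iPSC versus 15.3, 11.6 and 15.5 CPM in MEF, 5.76% of the MEF mean (-4.10, SE 0.32, adjusted p = 2.21e-09).

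The make-up of the cluster differed accordingly. Pcdhga1 held 1.88% ± 0.516 of gamma counts in MEF, 5.92% ± 1.99 at Stage1, 10% ± 1.1 at Stage2 and 10.8% ± 1.83 in iPSC. Pcdhga11 held 1.54% ± 0.212 in MEF and 8.54% ± 0.309, 7.07% ± 1.57 and 7.88% ± 0.744 in the later groups. The share of Pcdhga7 was 5.63% ± 0.656 in MEF, 1.84% ± 0.475 at Stage1, 1.97% ± 0.587 at Stage2 and 2.81% ± 1.44 in iPSC. Neighbouring genes differed, as Pcdhga10 held 1.51% ± 0.281 in iPSC and 5.26% ± 0.986 in MEF, whereas Pcdhgb7 beside it held 3.66% ± 1.08 in iPSC and 1.42% ± 0.32 in MEF. Shares in a sum are bound to each other, so a fall of Pcdhgc3 alone raises the rest.

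The low levels were set beside 1107 olfactory receptor genes, which are silent outside a few tissues and serve as a measure of stray reads. Summed CPM per kilobase of unshared exon over these genes was 0.00499 ± 0.000493 in MEF, 0.0545 ± 0.0155 at Stage1, 0.0648 ± 0.019 at Stage2 and 0.0443 ± 0.0253 in iPSC, which moved with the share of reads outside genes. The 19 gamma A and B genes had 2.63 ± 0.592, 0.41 ± 0.109, 0.911 ± 0.105 and 0.903 ± 0.0552 in the same order, above this level in all groups. All 22 gamma genes lay above the 95th percentile of the receptors at Stage1, Stage2 and iPSC (0.092, 0.12 and 0.0847 per kilobase). In MEF this percentile was 0, so any gene with a count exceeds it and MEF is left out of such counts.

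Beta genes had 0.698 ± 0.0845 in MEF, then 0.0811 ± 0.0187, 0.0792 ± 0.0242 and 0.0474 ± 0.0173, close to the receptors after MEF. Within the same library, beta genes stood above the receptors in 8 of the 9 later libraries, at 0.889 to 1.63 times their level, compared with 127 to 147 times in MEF. Of the 22 beta genes, 6 exceeded the 95th percentile at Stage1, 3 at Stage2 and 3 in iPSC. The 13 alpha genes with a position had 0.0238 ± 0.00569 in MEF, 0.0689 ± 0.0064 at Stage1, 0.0682 ± 0.0141 at Stage2 and 0.05 ± 0.0444 in iPSC, which was 0.354 to 1.8 times the receptors in the later libraries, above them in 6 of 9, and 3.97 to 5.34 times in MEF. Of these, 5 exceeded the percentile at Stage1, 2 at Stage2 and 1 in iPSC. The alpha cluster lies at 36930184 to 37187661 on chromosome 18, and no alpha gene had enough counts for a test. Its highest single value was 0.782 CPM, of the C-type Pcdhac2 at Stage2, and the row Pcdha4-g had no count in any library. Of 12 non-clustered genes, 2 exceeded the percentile at Stage1, 5 at Stage2 and 5 in iPSC.

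**Figure D5:**
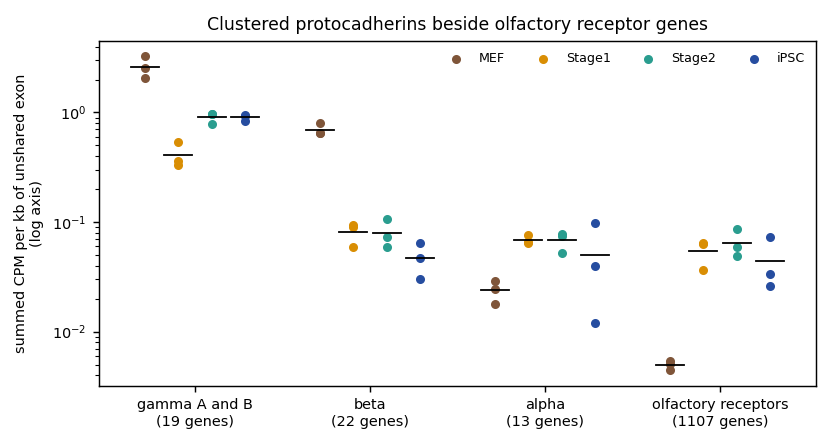
Summed TMM-scaled CPM per kilobase of unshared exon, on a log axis, of the gamma A and B, beta and alpha genes and of 1107 olfactory receptor genes in MEF, Stage1, Stage2 and iPSC, with points for the 3 libraries of each group and dashes for means. Gamma genes stay above the receptors in every group, while the beta libraries overlap them at Stage1, Stage2 and iPSC and the alpha libraries at Stage2 and iPSC.

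Genes that act on or with protocadherins were counted beside all genes, of which 44.2% were higher and 36.1% lower at Stage1 than in MEF, with no test of any list against other genes. Of 10 tested genes for CTCF, cohesin and its loaders, which loop clustered promoters to their enhancers, 9 were higher and 1 lower at Stage1 than in MEF. Ctcf had 176 ± 11.7 CPM at Stage1 and 48.0 ± 7.11 CPM in MEF (1.88, SE 0.14, adjusted p = 1.38e-09), and the lower one was the loader Mau2 (-0.44, SE 0.16, adjusted p = 0.0192). Of 16 genes of DNA methylation and silencing, 13 were higher and 1 lower. The higher ones include genes of opposite action, since Tet1 (712 ± 55.1 CPM at Stage1 and 7.04 ± 3.81 CPM in MEF) and Tet2 (837 ± 78.6 and 18.9 ± 2.53 CPM) oxidise methylcytosine, and the lower one was Tet3. Also among them the methyltransferase Dnmt3b, which methylates clustered promoters, had 298 ± 104 CPM at Stage1 and 1.57 ± 0.954 CPM in MEF, and Smchd1, a silencer of the clusters, 301 ± 21.7 and 85.0 ± 15.4 CPM. In Stage2 against Stage1, 1 of the 10 was higher and 3 lower, and 4 of the 16 were higher and 3 lower, beside 20.6% and 19.8% of all genes. Dnmt3b was lower at Stage2 than at Stage1 (-0.85, SE 0.30, adjusted p = 0.0333), whereas Dnmt3a (1.69, SE 0.22, adjusted p = 1.62e-05), the other de novo methyltransferase, and their cofactor Dnmt3l (3.24, SE 0.17, adjusted p = 7.11e-10) were higher.

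All 7 genes of proteolytic processing, the proteases that cut protocadherins at the membrane, were lower at Stage1 than in MEF, among them Adam10 (-1.78, SE 0.17, adjusted p = 2.42e-08). Of 12 genes of the WAVE complex and focal adhesion kinases, 3 were higher and 5 lower, and of 8 related large cadherins, 4 were higher and 3 lower. Of 7 classical cadherins, 2 were higher and 5 lower, with Cdh1 (E-cadherin) at 388 ± 7.58 CPM at Stage1 and 0.467 ± 0.519 CPM in MEF, and Cdh2 (N-cadherin) at 1.32 ± 0.414 and 97.6 ± 23.6 CPM. Neural markers, listed because protocadherins are best known from neurons, had 9 of 11 tested higher and 1 lower at Stage1, with sums of 226 to 251 CPM at Stage1 and 84.4 to 120 CPM in MEF. The lower one was the neuronal tubulin Tubb3, and the neuronal nuclear marker Rbfox3 lay between 0 and 1.28 CPM in all libraries.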

How the data were processed

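Raw counts per gene symbol, whole reads without normalization, were deposited by the authors for 12 libraries. The submitters' processing notes name the mm10 build and, without their roles, TopHat2 2.0.9, Bowtie2 2.2.6, SAMtools 0.1.19, HTSeq 0.5.4p3 and DESeq2 1.12.4. Strandedness, annotation version and counting mode are not given in the sources used here. HTSeq's summary lines, including 0.4664% to 0.7499% of ambiguous reads, stayed out of all tests.

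Counts were fitted in R 4.3.3 with edgeR 4.0.16 and limma 3.58.1. filterByExpr by group (minimum count 10, or 0.8042 CPM in 3 libraries) kept 14770 genes, scaled by TMM. Each contrast came from 1 robust quasi-likelihood model of the 4 groups, with Benjamini-Hochberg adjustment over all genes and a common biological coefficient of variation of 0.19. SE was taken as |log2 fold change| divided by the root of the F statistic. The procedure was tested on simulated data. Levels are TMM-scaled CPM. A group without counts is bounded by 3 counts over the group, which covers counting error only.

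Positions and exon lengths come from GENCODE vM21 (GRCm38), which held 69 of 71 members, and promoters from RefSeq. Per-kilobase values divide by exon bases shared with no other gene. Non-clustered members are named in full, with clustered members among the 5 largest called changes per contrast, direction and cluster with at least 1 CPM in the higher group. Other members named were chosen after their values were seen. Members and lists were chosen with earlier results of these data known. Alternatives were RLE scaling, library totals, no filter, DESeq2 1.42.0, a replicate block, a filter of 1 CPM in 3 libraries, separate models for each pair of groups, and leaving out each library.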

Additional observations from a re-analysis of the deposited data

How the results depend on the processing

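Of 97 protocadherin calls over the 5 comparisons, 0 reversed and 22 were lost under at least 1 alternative that still tested the gene. Calls whose gene an alternative did not test were not counted as lost. With the filter of 1 CPM in 3 libraries, for instance, 37 calls were kept and 0 counted as lost in Stage1 against MEF, where the main fit called 38 lower and 1 higher. Higher calls in Stage1 against MEF numbered 6 with no filter and 6 with DESeq2, against 1. Both added Pcdha6, Pcdha7, Pcdha8, Pcdhac1 and Pcdhb1, which had too few counts to be tested in the main fit. In Stage2 against Stage1, lower calls numbered 0 with library totals and 0 in a fit of only these groups, against 1. Lower calls in iPSC against Stage2 numbered 1 with RLE scaling, library totals, no filter, the filter of 1 CPM in 3 libraries or a fit of only these groups, and 2 with DESeq2, against 0. The gene was Pcdhb11 with no filter, Pcdhgc3 in the fit of only these groups, and Pcdhga10 in the other cases. DESeq2 called Pcdhga10 and Pcdhb11. Higher calls in iPSC against MEF numbered 1 with RLE scaling, library totals or the replicate block, 5 with no filter and 2 with DESeq2, against 0. Lower calls in iPSC against Stage1 numbered 2 in a fit of only these groups, against 4. Pcdhb19 and Pcdhb22 passed the count filter through MEF alone and were not tested in that fit, which kept 12 calls and lost 0. The cause of the other differences was not tested. Some fits without 1 library also tested Pcdhb2, Pcdhb5, Pcdhb7 or Pcdhb11, and called them lower than in MEF. The main fit did not test these genes, so the ranges that follow cover differing sets of genes. With 1 library left out, higher and lower calls ranged over 0 to 1 and 35 to 42 (Stage1 against MEF), 7 to 11 and 0 to 1 (Stage2 against Stage1), 0 to 0 and 0 to 2 (iPSC against Stage2), 0 to 1 and 27 to 36 (iPSC against MEF) and 6 to 11 and 2 to 5 (iPSC against Stage1).

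Blocking on replicate number lost Pcdhga11 in Stage1 against MEF (adjusted p = 0.0573), Pcdhgc5 in Stage2 against Stage1 (0.0648), and Pcdh1 and Pcdhgb7 in iPSC against MEF (0.0553 and 0.055). The block left 37 lower calls in Stage1 against MEF and 10 higher ones in Stage2 against Stage1. Deviations of same-numbered libraries from their group means correlated by 0.033 on average (-0.068 to 0.197) and other pairs by -0.016, so the numbers are not read as pairs. Depth limits the alpha genes, 12 beta genes and 4 non-clustered genes, where 3 counts correspond to 0.181 to 0.376 CPM per library.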
